A study of Mus musculus with 4 samples.

Results

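Chemokine ligands are small secreted proteins, and here they were taken as the genes whose symbols are Ccl or Cxcl followed by a number, together with Cx3cl1, Xcl1, Ppbp and Pf4. On the mouse 430 array 53 probe sets were annotated to such a gene alone, out of 45037 tested, and they stood for 35 genes out of 18193. OP9M2, a clone of the OP9 stroma that its labels call mesenchymal stem cells supportive of human blood progenitors, was compared with BFC012, a fibroblast line from mouse fetal liver labelled non-supportive, to ask what sets the supportive cells apart. Each line was represented by 2 arrays labelled as biological replicates. Cells of either line received 2000 rad and were harvested 48 hours after plating at a density of 25000 cells per cm2. No hematopoietic cell was described in these cultures. OP9M2 grew in 20% serum and BFC012 in 10%, so the effects of serum and of line cannot be told apart, and each line is a single established line. In bulk RNA, fewer cells of a type and less RNA per cell cannot be told apart.

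Chemokines bind G protein-coupled receptors on leukocytes and on stem cells and direct where those cells move. They also bind glycosaminoglycans on the surface of stroma, which holds them near the cell that made them. In bone marrow and fetal liver, Cxcl12 made by stroma keeps hematopoietic stem cells in place through Cxcr4, whereas the ELR CXC chemokines, named for a short glutamate, leucine and arginine motif before the first cysteines, draw neutrophils through Cxcr2. Many inflammatory chemokine genes are induced through NF-kB, a transcription factor family that answers to cytokines and microbial products.

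The chemokines that separated the lines were few, and they went in both directions. With limma, Ccl9 and Cxcl5 were higher in OP9M2, and Cxcl15, Ppbp and Cxcl17 were lower. A gene was called at an adjusted p under 0.05 over all probe sets and a change of 1 log2 unit or more. The 2 higher genes are 5.71% of the 35, against 2.36% of all genes, and the 3 lower genes are 8.57%, against 3.56% of all genes. Together they are 14.3% of the members, where 5.91% of all genes were called in either direction. By probe set, 5 were higher and 4 were lower, which is 17.0% of the 53, against 4.46% of all probe sets. The remaining 30 genes were not called, and 11 of the 35 had an unadjusted p under 0.05. In the same fit 8729 of the 45037 probe sets did, a count of probe sets and not of genes. The median difference was 0.02 log2 units over the 35 genes and 0.032 over all genes. The arrays of the lines did not overlap for 19 genes (54.3%), against 53.2% of all genes, so the share of genes without overlap was near that of the array as a whole. No test of the family as a list was made.

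**Figure D1:**
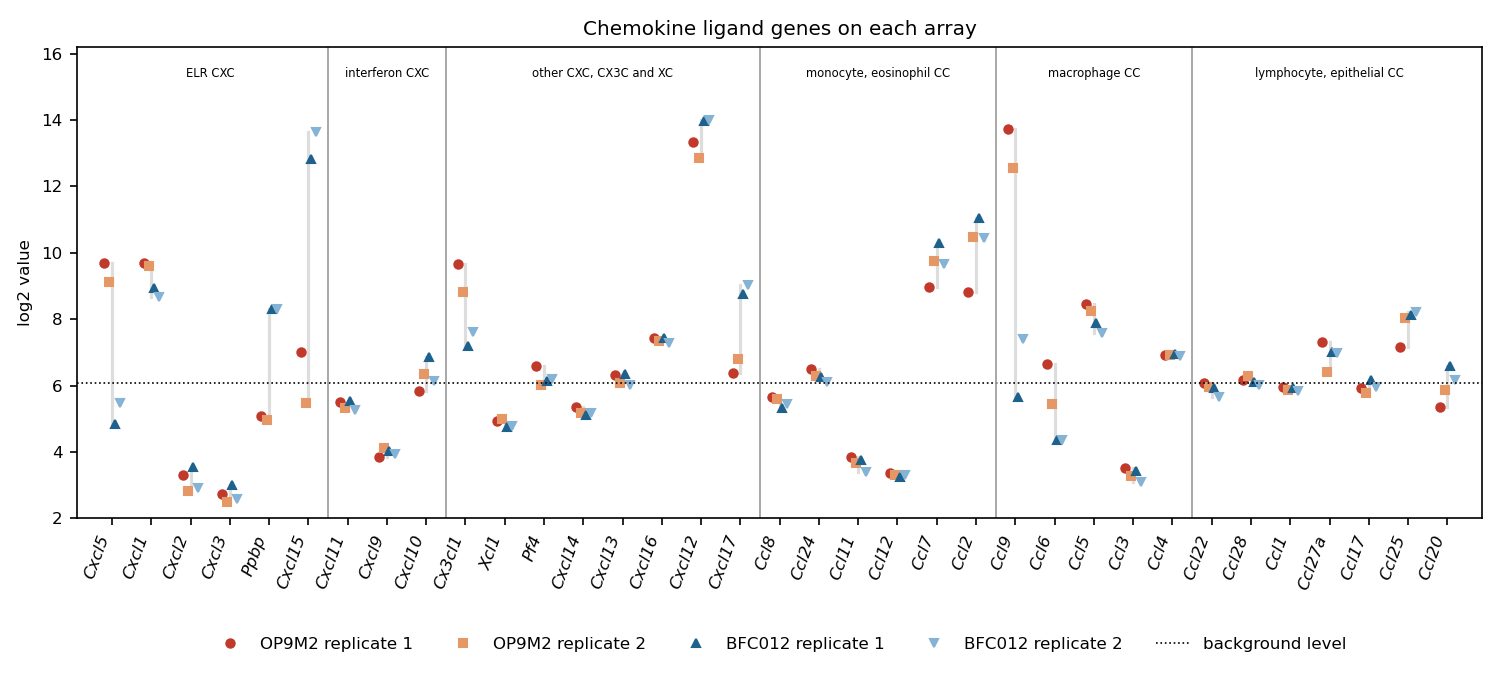
Log2 value (vertical axis) of the 35 chemokine ligand genes on each of the 4 arrays, 1 probe set a gene, grouped by family and role; points are arrays, grey bars span the lowest to the highest array, and the dotted line is the background level of 6.09 log2 units. Ccl9 and Cxcl5 lie far higher on the OP9M2 arrays, Cxcl15, Ppbp and Cxcl17 far higher on the BFC012 arrays, and 12 genes lie below the line on every array.

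A gene was counted as above background where it passed 6.09 log2 units, the level that 95% of the values of 81 chemosensory receptor probe sets did not exceed. On this count 20 of the 35 genes (57.1%) were above background on both arrays of at least 1 line, against 64.8% of all genes, and 12 were above it on all 4 arrays. A further 12 were above it on no array. These were Ccl1, Ccl3, Ccl8, Ccl11, Ccl12, Ccl22, Cxcl2, Cxcl3, Cxcl9, Cxcl11, Cxcl14 and Xcl1, and no difference among them was larger than 0.23 log2 units. The other 3 genes, Ccl6, Ccl17 and Cxcl13, passed the level on some arrays without filling a line.

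The ELR CXC chemokines gave 1 higher and 2 lower genes out of 6, where 5.91% of all genes were called in either direction. This was the largest share of calls in any of the chemokine groups, but with only 6 genes the share is imprecise. Cxcl5, an attractant of neutrophils made by stroma and epithelium, had log2 values of 9.70 and 9.12 in OP9M2 and 4.83 and 5.47 in BFC012. Both OP9M2 arrays were far above background and both BFC012 arrays were below it, and the difference was 4.26 ± 0.32 (SE; at least 9.96-fold, adjusted p = 0.00726). Cxcl15, the neutrophil attractant known as lungkine from lung epithelium, ran the other way. Its values were 7.00 and 5.47 in OP9M2 and 12.83 and 13.64 in BFC012. The gene was therefore bright on both BFC012 arrays and above background on only 1 OP9M2 array, with a difference of -7.00 ± 0.59 (adjusted p = 0.00990). Its other probe set had 5.57 and 4.35 against 10.93 and 12.13, below background throughout OP9M2 and at least 43.2-fold lower there (adjusted p = 0.0113).

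Ppbp, the precursor of a neutrophil-activating protein stored in platelet granules, had values of 5.09 and 4.96 in OP9M2 and 8.31 on each BFC012 array. It was below background in OP9M2 and lower by at least 4.65-fold (difference -3.29 ± 0.13, adjusted p = 0.00195). Pf4, the other platelet chemokine, lay at background in both lines, with 6.59 and 6.03 against 6.15 and 6.19. Of this platelet pair only Ppbp was called. Cxcl2 and Cxcl3, close relatives of Cxcl1 that also bind Cxcr2, were below background on all 4 arrays, with no value above 3.55.

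Cxcl1, a neutrophil attractant that stroma makes under inflammatory signals, depended on the probe set read. On the probe set with the highest mean, which stood for the gene, the values were 9.70 and 9.61 in OP9M2 and 8.95 and 8.67 in BFC012, a difference of 0.85 ± 0.16 that was not called (adjusted p = 0.0691). The name of that probe set carries the suffix x, which the maker gives where probes may also bind other transcripts. A probe set with no such suffix had 10.17 and 10.69 in OP9M2 against 5.87 and 5.48 in BFC012. On that measure Cxcl1 was below background in BFC012 and at least 20.3-fold higher in OP9M2 (difference 4.76 ± 0.25, adjusted p = 0.00331). The third, whose suffix s marks probes shared between transcripts, had 9.36 and 9.57 against 6.81 and 6.65 and was called higher as well (2.74 ± 0.16, 6.66-fold, adjusted p = 0.00388). All 3 probe sets were higher on both OP9M2 arrays, by amounts from 0.85 to 4.76 log2 units. With the mean of the 3 in place of the brightest, Cxcl1 was called higher (2.78, adjusted p = 0.00349).

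These genes are neighbours. In the RefSeq gene order of mouse chromosome 5 the run is Cxcl5, Ppbp, Pf4, Cxcl3, Cxcl15, Cxcl1 and Cxcl2, with no other protein-coding gene between them. Read along it, the difference was 4.26 for Cxcl5 and -3.29 for Ppbp beside it. Cxcl15, at -7.00, had Cxcl3, below background on every array, on its one side and Cxcl1, higher on every probe set, on the other. Genes called in opposite directions thus stood side by side. The sequence just upstream of 4 of them is shown, among them the called genes Cxcl15 and Ppbp, and the window of Ccl9 is added as that of the CC chemokine with the largest difference. Each window is the 250 bases before the annotated start, from RefSeq on build GRCm38.p6, 5' to 3' on the strand of the gene. Capitals mark matches to the motifs named after the sequences.

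Cxcl1, chr5:90890995-90891244, plus strand: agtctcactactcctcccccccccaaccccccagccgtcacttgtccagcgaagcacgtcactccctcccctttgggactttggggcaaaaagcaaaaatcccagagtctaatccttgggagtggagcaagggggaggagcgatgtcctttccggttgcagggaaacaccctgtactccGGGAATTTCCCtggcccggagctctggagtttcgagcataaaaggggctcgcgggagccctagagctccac
Cxcl2, chr5:90903649-90903898, plus strand: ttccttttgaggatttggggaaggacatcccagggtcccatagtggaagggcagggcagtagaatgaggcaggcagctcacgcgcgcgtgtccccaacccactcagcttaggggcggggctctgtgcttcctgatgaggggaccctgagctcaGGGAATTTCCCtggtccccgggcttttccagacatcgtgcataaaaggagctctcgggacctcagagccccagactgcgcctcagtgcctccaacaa
Cxcl15, chr5:90794284-90794533, plus strand: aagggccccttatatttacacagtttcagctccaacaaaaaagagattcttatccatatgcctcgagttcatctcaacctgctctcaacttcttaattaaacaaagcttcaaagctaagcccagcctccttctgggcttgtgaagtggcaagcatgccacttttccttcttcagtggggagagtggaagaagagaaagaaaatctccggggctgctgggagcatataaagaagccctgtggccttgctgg
Ppbp, chr5:90768268-90768517, plus strand: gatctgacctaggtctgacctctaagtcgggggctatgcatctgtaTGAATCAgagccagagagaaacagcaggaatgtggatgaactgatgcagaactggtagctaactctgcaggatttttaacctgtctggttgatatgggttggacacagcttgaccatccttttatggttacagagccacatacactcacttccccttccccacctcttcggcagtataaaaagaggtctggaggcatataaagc
Ccl9, chr11:83578637-83578886, minus strand: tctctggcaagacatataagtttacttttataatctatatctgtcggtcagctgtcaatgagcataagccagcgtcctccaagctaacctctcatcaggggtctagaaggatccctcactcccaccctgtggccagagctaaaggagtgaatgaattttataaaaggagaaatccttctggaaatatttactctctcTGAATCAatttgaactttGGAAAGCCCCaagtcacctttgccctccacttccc

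The motifs searched on both strands were that of NF-kB by its usual degenerate consensus, that of AP-1 (TGANTCA) and that of C/EBP (TTGCNNAA). Cxcl1 and Cxcl2 hold the same run of 11 letters, GGGAATTTCCC, which the NF-kB motif matches on each strand with the matches overlapping. It begins 71 bases before the start of Cxcl1 and 97 bases before that of Cxcl2. Cxcl15 holds none of the 3 motifs in this window, Ppbp holds 1 AP-1 match, and Ccl9 holds 1 match each of NF-kB and AP-1. A window was given for 25 of the 35 genes, and not for Cxcl5 or Cxcl17. Of those 25, 7 hold the NF-kB motif (28%), against 7.25% of all 32851 windows in the table. They were Ccl1, Ccl9, Ccl20, Cxcl1, Cxcl2, Cxcl3 and Cxcl10, of which Ccl9 is the single called gene and Ccl1, Cxcl2 and Cxcl3 were below background on every array. AP-1 was matched in 4 of the 25 (16%, against 6.75% of all windows) and C/EBP in 3 (12%, against 9.56%). For each motif the member share counts genes with a match in any window, while the other share counts windows. These shares are therefore not like for like. A match of letters is a description of the window and not of binding.

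**Figure D2:**
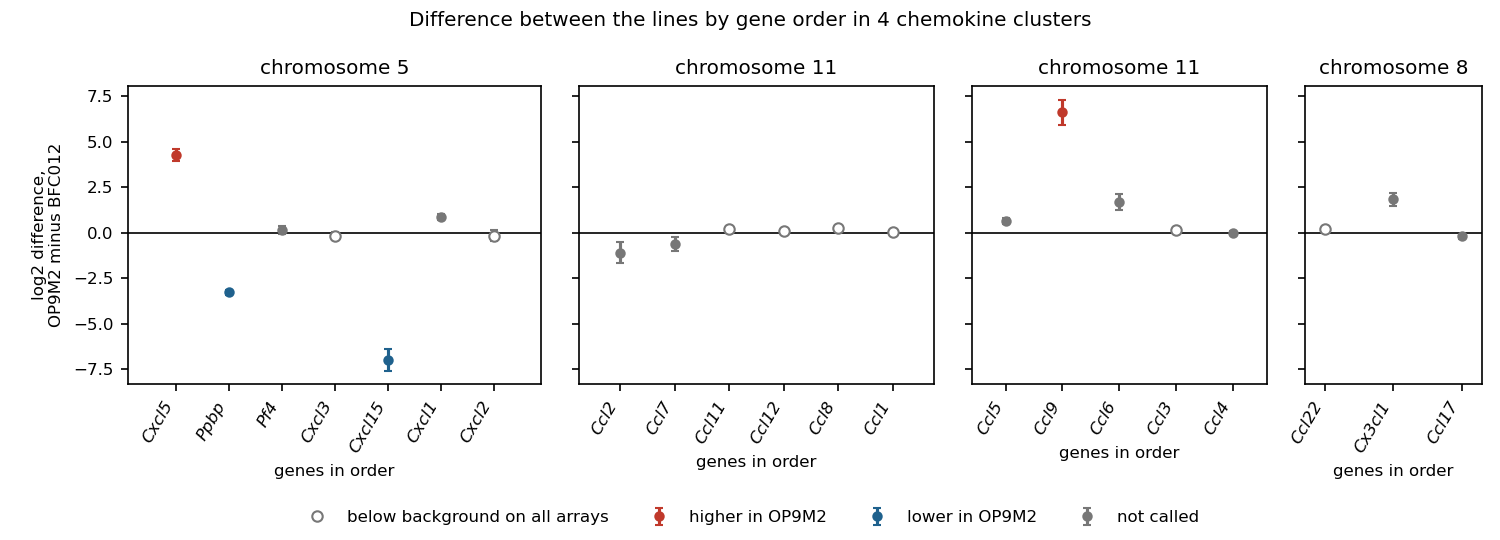
Log2 difference, OP9M2 minus BFC012 (vertical axis, error bars SE, 2 arrays a line), of the chemokine ligand genes in 4 clusters, in gene order and not to scale of distance; red points were called higher, blue points lower, grey points not called, and open points were below background on all arrays. On chromosome 5 Cxcl5 at 4.26 stands next to Ppbp at -3.29, and in the cluster of Ccl5 to Ccl4 on chromosome 11 Ccl9 at 6.60 stands apart from its neighbours.

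Among the CC chemokines of macrophage inflammation, Ccl9 alone was called out of 5 (20.0%, against 5.91% of all genes). Ccl9 attracts myeloid cells through Ccr1. Its values were 13.74 and 12.56 in OP9M2 and 5.67 and 7.42 in BFC012. The arrays within each line were over 1 unit apart, yet the gap between the lines was far wider, at 6.60 ± 0.71 (97.2-fold, adjusted p = 0.0186). BFC012 was above background on only 1 of its arrays, so the size of this fold is uncertain. Its other probe set read 13.27 and 11.93 against 4.70 and 6.37, a difference of 7.07 ± 0.73 (adjusted p = 0.0164), again with only 1 BFC012 array above background. Ccl6, the gene next to Ccl9 on chromosome 11 and a ligand of the same receptor, had 6.65 and 5.44 in OP9M2 and 4.36 and 4.37 in BFC012. Only 1 of those 4 arrays was above background, and the difference of 1.68 ± 0.42 was not called (adjusted p = 0.126). On the other side of Ccl9, Ccl5, an attractant of T cells, had 8.46 and 8.26 against 7.88 and 7.60, a difference of 0.62 ± 0.17 without overlap that was not called (adjusted p = 0.151). Ccl4 had 6.91 and 6.92 in OP9M2 and 6.95 and 6.90 in BFC012, and Ccl3, the gene before it, was below background on each.

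The monocyte attractants Ccl2 and Ccl7, ligands of Ccr2 and neighbours at the head of the other chromosome 11 cluster, were above background in both lines. Ccl2 read 8.82 and 10.48 in OP9M2 and 11.04 and 10.46 in BFC012, and Ccl7 read 8.96 and 9.74 against 10.31 and 9.65. In both genes the arrays of the lines overlapped, with OP9M2 replicate 1 lowest and BFC012 replicate 1 highest. The differences were -1.10 ± 0.60 for Ccl2 (adjusted p = 0.425) and -0.63 ± 0.37 for Ccl7 (adjusted p = 0.455), and neither was called. Ccl11, Ccl12, Ccl8 and Ccl1, which follow them in the cluster, were below background everywhere. Ccl24, an eosinophil attractant that lies elsewhere, stayed near background at 6.50 and 6.30 against 6.27 and 6.12.

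Of the other CXC, CX3C and XC chemokines, 1 of 8 was called (12.5%, against 5.91% of all genes). This was Cxcl17, a mucosal attractant of myeloid cells, with 6.38 and 6.80 in OP9M2 and 8.75 and 9.04 in BFC012. It was above background on all 4 arrays and 4.96-fold lower in OP9M2 (difference -2.31 ± 0.21, adjusted p = 0.0122). Cxcl12, the stem cell retention factor, was high on every array, at 13.34 and 12.86 in OP9M2 and 13.97 and 14.01 in BFC012. Both values of the supportive line lay below both of the non-supportive one, but the difference of -0.89 ± 0.20 was not called (adjusted p = 0.104). A further probe set of Cxcl12 had 12.12 and 11.03 against 12.87 and 12.65 (difference -1.19 ± 0.39, adjusted p = 0.210), and the last lay at background, between 5.76 and 6.15.

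Cx3cl1, which is made as a membrane-anchored protein and released by Adam10 and Adam17, had 9.66 and 8.81 in OP9M2 and 7.20 and 7.63 in BFC012. The arrays did not overlap and the difference was 1.82 ± 0.34 (3.54-fold), but it fell short of the call (adjusted p = 0.0676). With probe sets limited to those above background on at least 2 arrays it was called (adjusted p = 0.0484). With the mean of its probe sets the difference was 0.79, under the fold threshold, and was not called. A limma fit with a replicate block did not call Cx3cl1 (adjusted p = 0.186), and one with a crossed block did (adjusted p = 0.0421). Its other 3 probe sets, all dimmer, differed by 0.14 to 0.67 log2 units and none was called. Its neighbours on chromosome 8, Ccl22 and Ccl17, differed by 0.21 and -0.21. Cxcl16, the other membrane-anchored chemokine, had 7.43 and 7.33 in OP9M2 and 7.44 and 7.28 in BFC012, a difference of 0.02 ± 0.14.

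**Figure D3:**
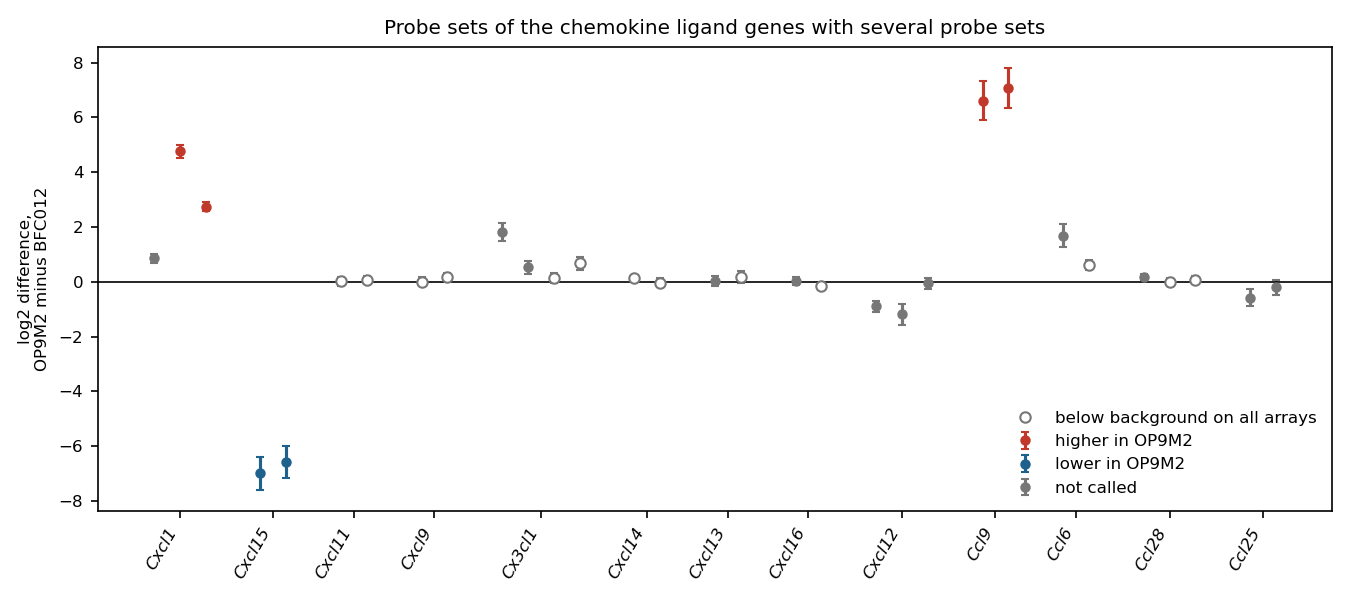
Log2 difference, OP9M2 minus BFC012 (vertical axis, error bars SE, 2 arrays a line), for each probe set of the 13 chemokine ligand genes with several probe sets, the brightest first in each gene; red points were called higher, blue points lower, grey points not called, and open points were below background on all arrays. The probe sets of Ccl9 and of Cxcl15 lie close together, while those of Cxcl1 spread from 0.85 to 4.76.

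None of the 7 lymphocyte and epithelial CC chemokines and none of the 3 interferon-inducible CXC chemokines was called. With 5.91% of all genes called, groups of this size may well hold no called gene. Ccl25, which draws thymocyte precursors through Ccr9, had 7.16 and 8.04 in OP9M2 and 8.14 and 8.22 in BFC012 (difference -0.58 ± 0.32). Ccl20, the ligand of Ccr6, had 5.36 and 5.86 against 6.58 and 6.17, above background in BFC012 alone (difference -0.77 ± 0.25, adjusted p = 0.205). On these probe sets both genes read lower on the OP9M2 arrays without overlap, by less than the test could call. The arrays did overlap on the other probe set of Ccl25, with 6.58 and 7.20 against 7.22 and 6.97 (difference -0.21). Ccl27a, a skin chemokine that binds Ccr10, had 7.30 and 6.42 against 7.02 and 6.98, and Ccl28, a mucosal ligand of the same receptor, had 6.17 and 6.28 against 6.11 and 6.02. Cxcl10, the interferon-induced ligand of Cxcr3, had 5.84 and 6.36 against 6.87 and 6.13. These 3 genes lay near or just above background, and the differences of Ccl27a and Cxcl10 were smaller than the gap between the arrays of a line. Another 4 probe sets name several genes of the Ccl19, Ccl21 or Ccl27 families at once and were not given to any gene; they differed by -0.02 to 0.30 and none was called.

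**Figure D4:**
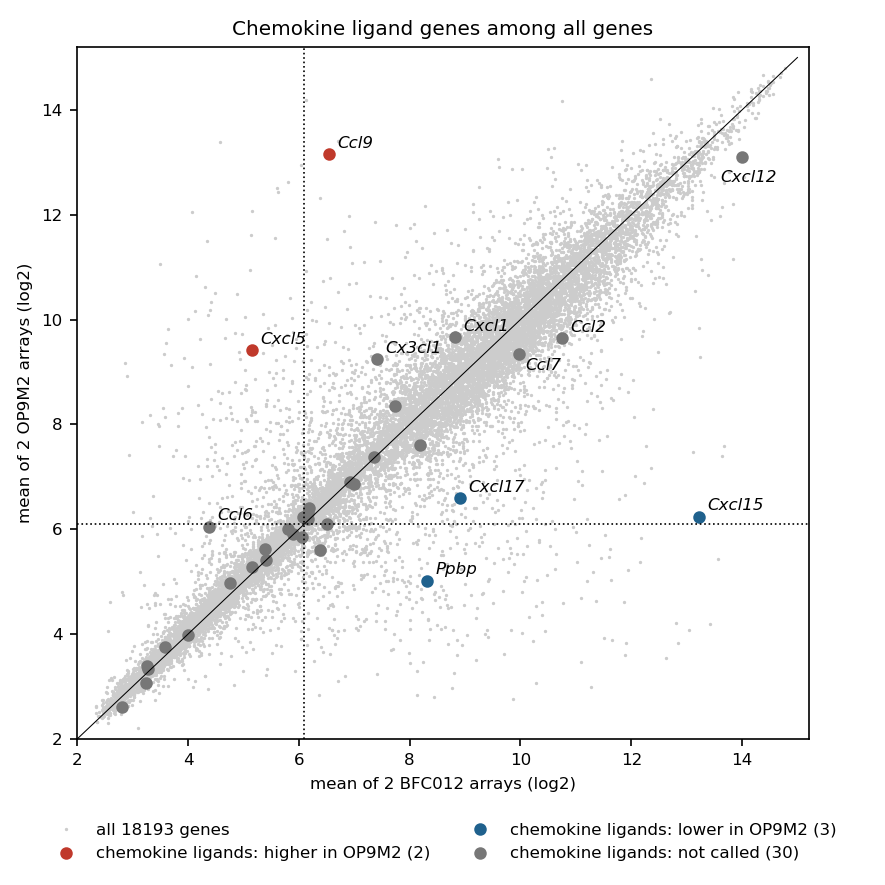
All 18193 genes in light grey by their mean log2 value over the 2 BFC012 arrays (horizontal axis) and over the 2 OP9M2 arrays (vertical axis), with the 35 chemokine ligand genes as large points, red where called higher in OP9M2 (2), blue where called lower (3) and dark grey where not called (30); dotted lines mark the background level of 6.09. The called genes lie far from the diagonal, and Cxcl12 lies near it at the bright end.

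The stroma itself carried hardly any signal for the receptors measured through which these ligands act on cells, the atypical receptors aside. Of 18 chemokine receptors listed, 2 were not analysed. Of the 16 measured, 14 were below background on all 4 arrays. None was called, against 5.91% of all genes (median difference 0.05). Cxcr4 had 3.94 and 3.84 in OP9M2 and 3.72 and 3.91 in BFC012, and the neutrophil receptor Cxcr2 had 4.28 and 4.02 against 4.18 and 3.89. The monocyte receptor Ccr2 had 5.81 and 6.01 against 5.88 and 6.07. All 3 were below background on every array. The exceptions, Ccr10 and Cxcr3, lay between 6.25 and 6.77 on all arrays. Of the 5 atypical receptors, which bind chemokines without the usual signal and clear them, Ackr3 was the 1 called. That is 20.0%, against 5.91% of all genes. Ackr1 (6.54 to 6.67) and Ackr4 (7.62 to 7.89) were above background on all arrays but not called. Ackr3 removes Cxcl12 from the surroundings of a cell, and its values were 11.57 and 11.81 in OP9M2 and 6.10 and 7.55 in BFC012. It was bright on both OP9M2 arrays and near background on 1 BFC012 array, a difference of 4.87 ± 0.51 (29.2-fold, adjusted p = 0.0168). Its probe set also carries the suffix s. For Cxcl12 the difference had the opposite sign and was not called.

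**Figure D5:**
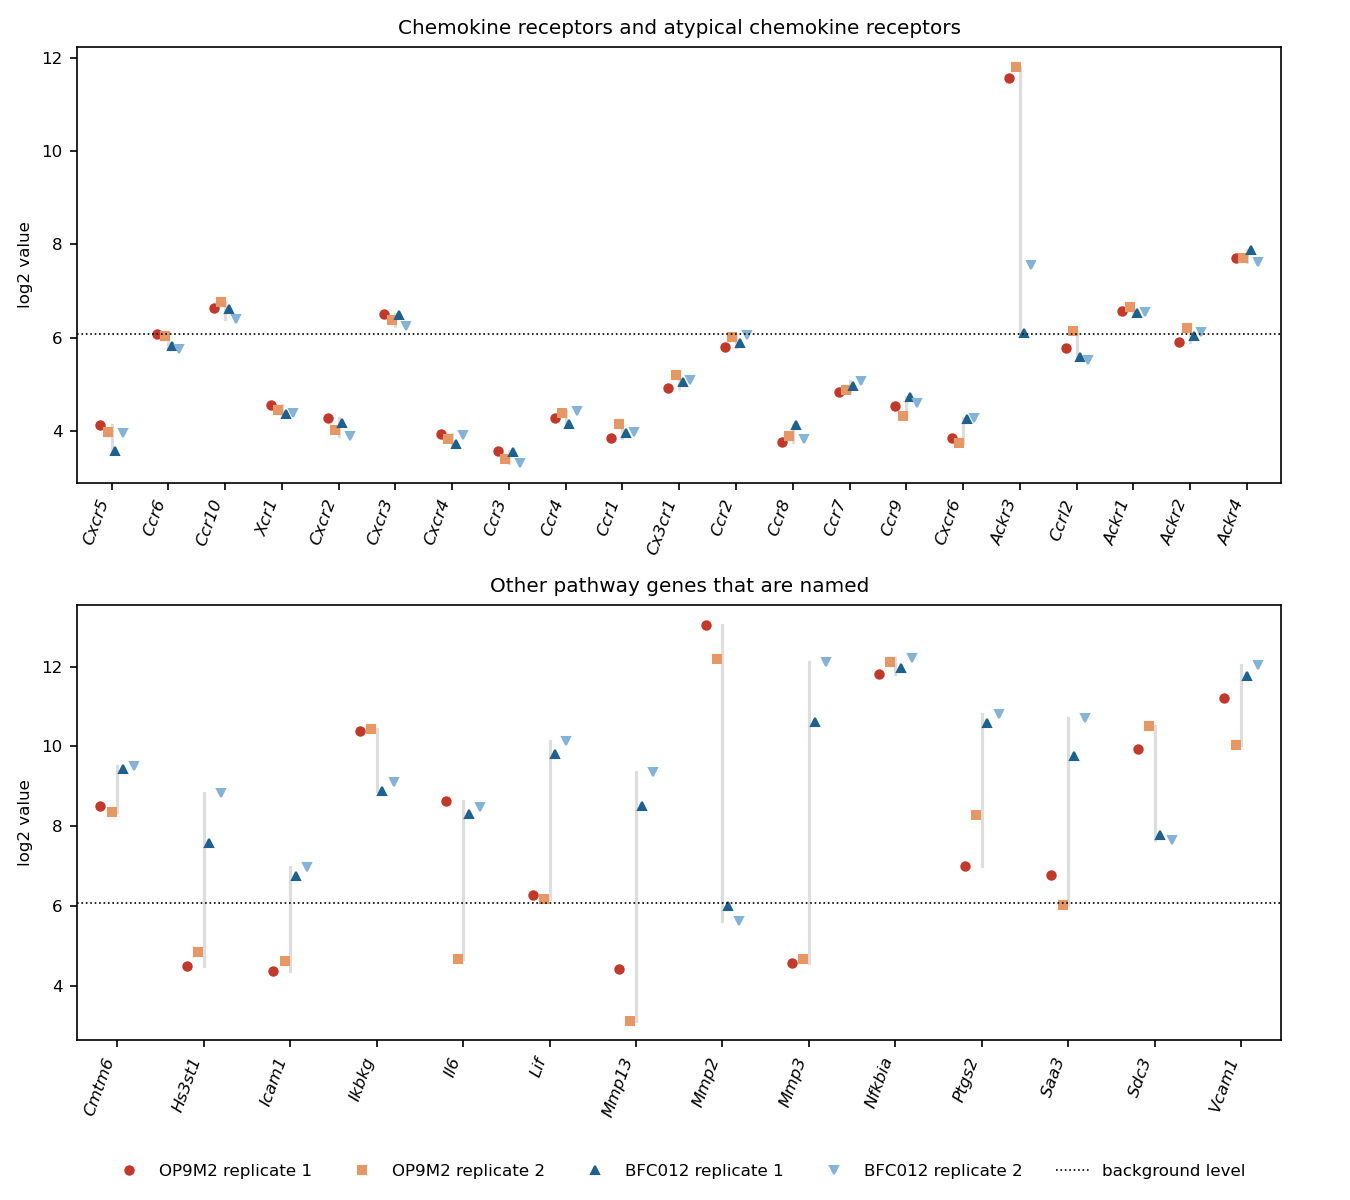
Log2 value (vertical axis) on each of the 4 arrays of 16 chemokine receptors and 5 atypical receptors (upper panel) and of 14 other named genes of the pathway (lower panel), 1 probe set a gene; grey bars span the lowest to the highest array and the dotted line is the background level of 6.09 log2 units. Ackr3 stands out among the receptors with both OP9M2 arrays above 11.5, and Il6 on OP9M2 replicate 2 lies far below its other 3 arrays.

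Among 16 proteases that trim or shed chemokines, 1 was higher and 2 were lower (median difference -0.04). Together they are 18.8% of the 16, against 5.91% of all genes. Mmp2, a gelatinase that inactivates Cxcl12 by cutting its first residues, had 13.05 and 12.20 in OP9M2 and 6.00 and 5.63 in BFC012 (at least 92.6-fold, adjusted p = 0.00278). Mmp3, a stromelysin, had 4.57 and 4.69 against 10.60 and 12.11 (at least 38.4-fold lower, adjusted p = 0.00799), and the collagenase Mmp13 had 4.44 and 3.14 against 8.52 and 9.37 (at least 7.22-fold lower, adjusted p = 0.0165). Each was below background throughout the line with less. The sheddases Adam10 and Adam17 differed by -0.79 and -0.49 and were not called. Among 18 heparan sulfate carriers and enzymes that hold chemokines at the surface (median difference -0.57), the proteoglycan Sdc3 was higher (9.94 and 10.50 against 7.79 and 7.65, adjusted p = 0.0123), with its other 2 probe sets not called at 0.16 and 0.72. The sulfotransferase Hs3st1 was lower (4.51 and 4.86 against 7.58 and 8.84, at least 4.33-fold, adjusted p = 0.0286). Together with Sdc3 it makes 11.1% of the 18 called, against 5.91% of all genes.

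The regulators upstream of inflammatory chemokines were called about as often as genes in general. Of 16 NF-kB subunits and regulators (median difference -0.11) the 1 called, 6.25% against 5.91% of all genes, was Ikbkg, the scaffold of the IkB kinase, at 10.39 and 10.43 against 8.88 and 9.11 (1.41 ± 0.15, adjusted p = 0.0176), while its other 5 probe sets differed by 0.55 to 0.99 and were not called. Nfkbia, the inhibitor that NF-kB itself induces, had 11.82 and 12.12 against 11.96 and 12.21, a difference of -0.11 ± 0.18 with overlapping arrays. The subunit Rela passed the adjusted p (0.0414) but not the fold, at -0.89. Of 12 interferon regulators (median -0.08) none was called, against 5.91% of all genes. Of 19 inflammatory stroma genes (median -0.19) 4 were lower in OP9M2 (21.1%, against 3.56% of all genes) and none was higher. The acute phase protein Saa3 had 6.77 and 6.03 against 9.76 and 10.71 (adjusted p = 0.0191), and the cytokine Lif had 6.27 and 6.18 against 9.81 and 10.14 (adjusted p = 0.00239), with a second probe set at -0.69 that was not called. The prostaglandin synthase Ptgs2 had 7.01 and 8.29 against 10.58 and 10.80 (adjusted p = 0.0399), again with a second probe set that was not called (-2.33, adjusted p = 0.0510). The adhesion molecule Icam1 had 4.39 and 4.64 against 6.75 and 6.98 (at least 1.71-fold, adjusted p = 0.00671). Vcam1, the adhesion molecule that holds progenitors to stroma, had 11.21 and 10.04 against 11.76 and 12.04, and 1 of its 3 probe sets was called lower (-2.24, adjusted p = 0.0279). Il6 had 8.63 and 4.67 in OP9M2 against 8.31 and 8.49, so a single OP9M2 array made its difference of -1.75 ± 1.33. Of 8 chemokine-like and other attractants measured, Cmtm6 was the 1 called (12.5%, against 5.91% of all genes). It was lower in OP9M2 (8.51 and 8.35 against 9.43 and 9.50, adjusted p = 0.0326). Its other probe set was not called, at -0.60.

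The marker lists were read for other cells that make chemokines. None of 13 leukocyte markers was called, against 5.91% of all genes, and 8 of the 13 were below background on all arrays. The summed linear level of the 13 was 697 to 776 in OP9M2 and 673 to 698 in BFC012. Ptprc, the pan-leukocyte marker CD45, lay between 4.36 and 4.41. Csf1r, Laptm5 and Cd3e were above background on all arrays, between 6.49 and 7.07, and Cd68 and Lyz2 on some arrays. Of 8 endothelial markers 7 and of 7 hepatocyte markers 5 were below background on all arrays. None was called, against 5.91% of all genes. The others, Kdr (6.52 to 6.88), Ttr (7.16 to 7.49) and Apoa2 (6.33 to 6.83), were above it on all arrays. Of 10 stromal markers 8 were above background on both arrays of at least 1 line. The other 2, Thy1 (4.08 to 4.77) and Lum (4.39 to 5.85), were below it on all arrays. Of the 10, 2 were called, both higher in OP9M2 (20.0%, against 2.36% of all genes). The type I collagen gene Col1a2 had 14.25 and 14.14 in OP9M2 against 6.18 and 6.07 in BFC012 (adjusted p = 0.00105), and the calcium-binding protein S100a4 had 14.54 and 14.63 against 12.32 and 12.39 (adjusted p = 0.00415). Col1a1, the other chain of type I collagen, was bright in both lines, at 12.78 and 12.14 against 13.06 and 13.12. Col3a1 was bright as well, at 13.59 and 12.11 against 12.38 and 12.85. Neither was called. Pdgfra and Pdgfrb differed by 3.37 and 2.18 without overlap but were not called either (limma adjusted p = 0.0513 and 0.109). Of the 10 stromal markers 8 had a positive difference.

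The OP9M2 arrays were less alike (Pearson r = 0.980 across probe sets, 2842 of them at least 1 unit apart) than the BFC012 arrays (r = 0.994, 291), and r between lines was 0.941 to 0.954; probe sets are not independent replicates. The 12 poly-A control probe sets, which report RNA spiked in before labelling, averaged 4.16 on OP9M2 replicate 2 and 5.88 to 7.26 on the others, and the labels name no batch. Without that array Ccl9 was at 7.19, Cxcl5 at 4.55, Cxcl15 at -6.23, Ppbp at -3.22 and Cxcl17 at -2.52. Without OP9M2 replicate 1 these 5 genes were at 6.01, 3.96, -7.76, -3.35 and -2.10, in the same order. In both of these fits the spread is that of the BFC012 arrays, which are the more alike. The lone OP9M2 array is assumed to vary as they do, so any call from these fits rests on that assumption. Without BFC012 replicate 1 or replicate 2, limma called 0 probe sets of the whole array, the OP9M2 pair then giving the whole spread, and 4568 and 4517 had an unadjusted p under 0.05. Ccl9 was then at 5.73 and 7.48, Cxcl5 at 3.93 and 4.58, Cxcl15 at -7.40 and -6.59, Ppbp at -3.29 and -3.28, and Cxcl17 at -2.45 and -2.17. For each of the 5 genes the arrays of the lines did not overlap, so leaving out 1 array could not change the direction.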

How the data were processed

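Total RNA of both lines, amplified with an Ambion kit, was hybridised to 4 Affymetrix mouse arrays. The deposited values are intensities of each probe set on each array. The authors' processing notes name RMA and affy and the study names a Bioconductor release for its computations, with the versions of RMA and affy not given in the sources used here. As the highest deposited value, 2958707, is above the scanner limit of 65535, the natural logarithm was read as the RMA log2 value. Reading the values as linear and taking log2 makes each difference 1.44 times as large and leaves the adjusted p as it was.

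Of 45101 probe sets 64 controls were left out. Of the 45037 tested, 34945 named 1 gene, 932 several and 9160 none in the array annotation. The identifiers of 34741 probe sets were found in the RefSeq gene table (GRCm38.p6), which gave symbols and gene order. A gene was represented by its brightest probe set. limma 3.58.1 in R 4.3.3 compared 2 arrays with 2 (2 residual and 2.50 prior degrees of freedom, two-sided), with Benjamini-Hochberg adjustment over all probe sets, after the study's false discovery rate of 0.05 and 2-fold threshold. The number of arrays limits the precision. Tested on simulated data for this comparison over 45037 probe sets, it recovered 0 of 50 changes of 1 log2 unit, 15 of 50 of 2 units, 26 of 50 of 3 units and 32 of 50 of 4 units.

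Where the line with less was not above background on either array, folds are the mean of the other line over the background level and are given as at least. Named with every array's value were member genes above background on both arrays of a line or with a called probe set, and, from the other lists, called genes and Cxcr4, Ackr3, Cxcr2, Ccr2, Nfkbia, Il6 and Vcam1. The values of Ccl6, Ccr10, Cxcr3, Ackr1, Ackr4, the sheddases, Rela and the markers that were not called were added after they were seen. The members and the gene lists were chosen with earlier results of these data known. Alternatives varied the scale, normalization, filter, variance trend, replicate block, fold threshold, probe set summary, background percentile and arrays.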

Additional observations from a re-analysis of the deposited data

How the results depend on the processing

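Of 220 values of the named chemokine genes under alternatives, 193 kept their direction and their side of the call, 13 were no longer called, 7 became called and 7 changed sign. Only the 5 called genes had a call to lose, and all 13 lost calls were theirs. Quantile normalization, median centring and an intensity trend each called the same 5 genes. The filter on dim probe sets and the mean of a gene's probe sets each added 1. Log2 of the deposited values and no fold threshold called the same 5 too, but neither could lose a call. The former keeps every sign and adjusted p. Leaving out 1 array gave 0 to 4 higher and 0 to 5 lower chemokine genes, 0 to 4437 called probe sets and 0 to 30 called genes of the other lists, markers included (14 with all arrays); every zero came without a BFC012 array. With the replicate block, 0 chemokine genes were called higher, with Ccl9 at an adjusted p of 0.093 and Cxcl5 at 0.0556. An unadjusted p under 0.05 was found for 10 member genes and for 7324 of all 45037 probe sets. In that fit 2 chemokine genes were called lower (Cxcl17 and Ppbp, with Cxcl15 at 0.0639). There 707 probe sets were called against 2008, and 7 genes of the other lists. Arrays of the same number share only that number (r of their deviations -0.103, 2 arrays a line). With the crossed replicate block, chosen after seeing the data, 3 were higher, 3 lower and 1377 probe sets were called. The cause of these changes was not tested. Fits without an array had fewer arrays, and fits with a replicate block had fewer residual degrees of freedom. Genes that were not called and changed sign were Ccl4 (0.01 with quantile normalization; -0.04 to 0.01 without 1 array), Cxcl16 (-0.06 with the mean of its probe sets; -0.06 to 0.10 without 1 array), Pf4 (-0.14 to 0.42 without 1 array) and Ccl27a (-0.58 to 0.30 without 1 array). With background at the 90th or 99th percentile, 24 or 15 member genes were above it on both arrays of a line, against 20.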
